A study of Mus musculus with 2 samples.

Results

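The genes that make, convert and break down ceramide were described across the cells of mouse white fat, recorded as subcutaneous. Those that export and sense sphingosine phosphate were included. The list has 37 genes, all of which were found by symbol among the 32246 gene symbols of the count matrices. It holds 16 genes of de novo synthesis, 7 of sphingomyelin turnover and other ceramide use, 5 ceramidases, 6 genes of sphingosine phosphate metabolism and export, and 3 receptors. Levels are given as UMIs (unique molecular identifiers, each standing for 1 captured transcript) per 1000000 UMIs of a class of cells, written UPM. At a floor of 10 UPM, 25 of the 37 genes were detected in progenitors of at least 1 library, and 29 in progenitors or endothelial cells.

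Both libraries are droplet single-cell RNA-seq of stromal vascular cells, the cells of fat other than mature adipocytes, sorted to lack the leukocyte antigen CD45. The first library is WT and the other is Paqr4 transgenic, so each genotype has 1 library and no replicate. The study asked how PAQR4 affects the pool of progenitors, and cells of 3 mice were pooled; whether 3 mice per genotype or 3 in all is not given. Strain, age, diet and sex of the mice, and the promoter and 3' end of the transgene, are absent from the labels. Xist, the transcript of the inactive X chromosome, had a UMI in 94.1% of progenitors in WT against 0.221% in transgenic, and Y-linked genes in 2.04% and 94.0%. The libraries therefore differ in sex as well as genotype, and the effects of these cannot be told apart. Paqr4 itself stood at 7.88 UPM in WT against 9.49 UPM in transgenic progenitors (log2 ratio 0.27, 95% interval −0.00 to 0.54), from 202 and 250 UMIs. In endothelial cells it stood at 13.7 and 13.6 UPM, from 14 and 9 UMIs. These levels do not separate the libraries beyond counting error; a transgene that lacks the sequence counted would not be seen.

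The libraries held 44145257 and 43084906 UMIs, and 1328 WT and 1521 transgenic cells were used, with 0 cell barcodes in common. Progenitors numbered 1127 and 1360 cells, with a median of 22600 and 19335 UMIs, and endothelial cells 101 and 85 cells, with a median of 9541 and 7645 UMIs. All 10 progenitor markers (such as Pdgfra and Dcn) were above the floor in progenitors of both libraries, and all 10 endothelial markers (such as Pecam1 and Cdh5) in endothelial cells. Endothelial markers summed to 9478 and 8503 UPM in endothelial cells and to 200.3 and 158 UPM in progenitors. Progenitor markers summed to 31213 and 28854 UPM in progenitors and to 1805 and 1128 UPM in endothelial cells. Clusters were placed without the 37 genes and without 47 further genes of the pathway. Clusters outside the comparisons included 21 mesothelial-like and 15 epithelial-like cells. A further 30 cells (25 WT, 5 transgenic) were led by genes such as Clps, Reg1 and Ctrb1, known from the pancreas. Whether these cells bear on the depot was not tested. With 1 library per genotype no test between genotypes was run, and intervals on levels (exact Poisson) and ratios (exact binomial, conditional on the total) are at 95% and cover counting error only. A gene was counted as higher or lower past 1.5-fold.

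Sphingolipids are built on a sphingoid base that serine palmitoyltransferase makes from serine and palmitoyl-CoA at the endoplasmic reticulum. Ceramide, the hub of the pathway, is passed on to sphingomyelin or glycolipids in the Golgi, and is regained when sphingomyelinases split sphingomyelin. Ceramidases release sphingosine, whose phosphate is either destroyed or exported to act on G protein-coupled receptors. In fat, ceramide is known for opposing insulin action, and the adiponectin receptors, relatives of PAQR4, are known to have ceramidase activity.

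The promoters of 4 genes are shown because their transcripts were among those that differed most between cell types, progenitor clusters or libraries. Each is the 250 bases before the RefSeq transcript start, read in the direction of the gene (5′ to 3′, RefSeq on GRCm38.p6). Capitals mark GGAAG, the core of ETS factor sites, or CACCC, a site of KLF factors, on either strand, so that CTTCC and GGGTG are also in capitals. Acer2 was high in endothelial cells, Cers6 was high in progenitors, Acer3 was highest in 1 progenitor cluster, and S1pr3 differed most between the libraries. They lie at chr4:86874164-86874413 on the plus strand, chr2:68861191-68861440 on the plus strand, chr7:98309543-98309792 on the minus strand and chr13:51408368-51408617 on the plus strand.
Acer2: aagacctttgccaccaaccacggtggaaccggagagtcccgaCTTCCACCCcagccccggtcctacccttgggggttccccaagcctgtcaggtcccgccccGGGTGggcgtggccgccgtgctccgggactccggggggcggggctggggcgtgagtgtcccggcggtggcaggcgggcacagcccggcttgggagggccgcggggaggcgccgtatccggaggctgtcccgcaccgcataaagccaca
Cers6: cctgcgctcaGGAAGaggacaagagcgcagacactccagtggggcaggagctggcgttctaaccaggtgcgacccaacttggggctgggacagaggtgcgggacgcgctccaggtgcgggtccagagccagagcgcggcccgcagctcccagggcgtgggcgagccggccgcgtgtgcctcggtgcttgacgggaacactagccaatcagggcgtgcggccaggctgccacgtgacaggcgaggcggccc
Acer3: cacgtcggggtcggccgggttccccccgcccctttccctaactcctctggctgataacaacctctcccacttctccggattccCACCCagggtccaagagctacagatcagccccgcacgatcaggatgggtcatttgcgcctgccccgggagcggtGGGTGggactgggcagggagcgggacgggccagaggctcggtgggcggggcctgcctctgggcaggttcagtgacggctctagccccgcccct
S1pr3: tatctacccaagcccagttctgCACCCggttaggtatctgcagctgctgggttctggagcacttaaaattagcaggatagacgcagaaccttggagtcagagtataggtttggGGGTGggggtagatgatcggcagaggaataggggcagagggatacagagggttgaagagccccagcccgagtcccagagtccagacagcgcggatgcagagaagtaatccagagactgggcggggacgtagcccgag

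GGAAG occurred 1 time in the Acer2 window and 1 time in the Cers6 window, and 0 times in the windows of Acer3 and S1pr3. CACCC occurred 2 times in each of Acer2, Acer3 and S1pr3 and 0 times in Cers6; in Acer2, 1 of the matches overlaps the GGAAG match. Windows with GGAAG made up 64.1% of 32851 RefSeq promoters of this length, and windows with CACCC 52.0%, so a match here is common. CpG pairs numbered 24 in Acer2, 23 in Cers6, 17 in Acer3 and 9 in S1pr3, against a median of 6 over all promoters. The Acer3 window lies within the gene body of a longer Acer3 transcript. Promoters of 34 of the 37 genes were matched; S1pr1, Smpd3 and Asah1 were not.

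The widest contrast in the pathway was between endothelial cells and progenitors. Endothelial cells held the receptor S1pr1, the exporter Spns2 and the Golgi ceramidase Acer2, all near 0 in progenitors, while Cers6, Smpd3 and the receptors S1pr2 and S1pr3 were higher in progenitors. Of 29 genes at the floor, 11 were past 1.5-fold higher in endothelial cells of both libraries and 8 lower, beside 27.6% of all 10485 genes higher and 18.1% lower. Acer2, Sgpp2, Spns2 and S1pr1 reached the floor in endothelial cells only, and Cers6, Smpd3, Sphk1, S1pr2 and S1pr3 in progenitors only. A call in the other direction was hardly open to these genes. The median log2 ratio of the 29 genes was 0.22 in WT and 0.24 in transgenic, against 0.33 and 0.21 over all genes.

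S1pr1, the receptor through which sphingosine phosphate steadies the endothelial barrier, stood at 481 UPM in WT against 447 UPM in transgenic endothelial cells, and at 1.91 and 0.53 UPM in progenitors (log2 ratios 7.98, interval 7.55 to 8.43, and 9.72, interval 8.95 to 10.61). A UMI of S1pr1 was seen in 93.1% and 85.9% of endothelial cells and in 2.93% and 0.882% of the deeper progenitors. The progenitor levels lay below the 10.2 and 9.10 UPM in near-empty droplets (barcodes of at most 50 UMIs). S1pr2 went the other way, at 20.3 and 25.7 UPM in progenitors and 5.89 and 0 UPM in endothelial cells. The transgenic endothelial cells had 0 UMIs, which puts the upper end of the log2 ratio at −2.19. Near-empty droplets held S1pr2 at 14.1 and 22.7 UPM (transgenic interval 16.6 to 30.4), so the transgenic progenitor level was not above that in near-empty droplets beyond counting error. S1pr3, a receptor known from vascular and stromal cells, stood at 13.5 and 43.7 UPM in progenitors and 3.92 and 4.55 UPM in endothelial cells, the latter from 4 and 3 UMIs (log2 ratios −1.78, interval −3.67 to −0.41, and −3.26, interval −5.54 to −1.71). Near-empty droplets held S1pr3 at 7.82 and 29.8 UPM. In both libraries the ratios thus put S1pr1 higher in endothelial cells and S1pr2 and S1pr3 higher in progenitors. The limits above, for transgenic S1pr2 and for the few endothelial UMIs of S1pr3, remain.

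Genes that make, destroy or export sphingosine phosphate were split likewise. Spns2, the exporter of sphingosine phosphate, stood at 80.4 and 86.4 UPM in endothelial cells and 1.68 and 1.63 UPM in progenitors, 48.0-fold and 53.0-fold higher. Sgpp2, a phosphatase that returns the phosphate to sphingosine, had 13 and 2 UMIs in endothelial cells and 1 and 2 UMIs in the far larger pool of progenitor UMIs (log2 ratios 8.35, interval 5.62 to 13.76, and 5.32, interval 1.53 to 9.11). Sgpl1, the lyase that irreversibly cleaves sphingosine phosphate, was lower in endothelial cells, at 18.6 and 18.2 UPM against 57.8 and 50.7 UPM (log2 ratios −1.63 and −1.48). Sphk1, the inducible sphingosine kinase, stood at 13.6 and 13.1 UPM in progenitors and had 2 and 1 UMIs in endothelial cells (log2 ratios −2.79, interval −5.84 to −0.93, and −3.11, interval −8.42 to −0.63). Sgpp1, the other phosphatase, did not pass in both libraries, at 16.7 and 6.07 UPM in endothelial cells against 22.8 and 24.9 UPM. Near-empty droplets held Sphk1 at 14.7 and 19.7 UPM, no lower than progenitors. The exporter was thus higher in endothelial cells and the lyase in progenitors, while Sphk1 in progenitors was not above the level in near-empty droplets.

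Among ceramidases, which cut ceramide to sphingosine, Acer2 stood at 226 and 187 UPM in endothelial cells and 1.52 and 3.15 UPM in progenitors (log2 ratios 7.21, interval 6.72 to 7.74, and 5.89, interval 5.47 to 6.31). A UMI of Acer2 was seen in 62.4% and 48.2% of endothelial cells and in 2.13% and 3.09% of progenitors. Asah2, the neutral ceramidase, was also higher in endothelial cells, at 70.6 and 123 UPM against 30.1 and 31.9 UPM (log2 ratios 1.23 and 1.94). Asah1, the acid ceramidase of lysosomes, and Acer3, an alkaline ceramidase, were present in both cell types and did not pass in both libraries. Asah1 stood at 52.0 and 51.6 UPM in endothelial cells against 66.6 and 72.7 UPM, and Acer3 at 88.3 and 97.1 UPM against 145 and 130 UPM, past 1.5-fold lower in the WT library only.

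In sphingomyelin turnover and other uses of ceramide, Sgms1, the Golgi sphingomyelin synthase, stood at 613 and 522 UPM in endothelial cells and 118 and 134 UPM in progenitors, 5.21-fold and 3.91-fold higher. Ugcg, which makes glucosylceramide, stood at 94.2 and 118 UPM against 35.9 and 26.6 UPM, and Cerk, the ceramide kinase, at 127 and 98.6 UPM against 44.3 and 48.9 UPM. These enzymes, which take ceramide as substrate, were all higher in endothelial cells. Sgms2, the sphingomyelin synthase of the plasma membrane, was the exception at 18.6 and 27.3 UPM against 46.3 and 53.5 UPM (log2 ratios −1.31 and −0.97). Smpd3, a neutral sphingomyelinase, stood at 291 and 147 UPM in progenitors, while endothelial cells had 4 and 1 UMIs of it, or 3.92 and 1.52 UPM (log2 ratios −6.21, interval −8.09 to −4.86, and −6.60, interval −11.90 to −4.12). Smpd1, the acid sphingomyelinase, was lower by less, at 9.81 and 13.6 UPM against 17.7 and 21.1 UPM, and its intervals reached 0 (−1.92 to 0.04, and −1.76 to 0.31).

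In de novo synthesis the ceramide synthases were divided. Cers6, which with Cers5 makes ceramides of palmitate length, stood at 99.3 and 126 UPM in progenitors and had 4 and 1 UMIs in endothelial cells (log2 ratios −4.66, interval −6.54 to −3.30, and −6.38, interval −11.68 to −3.90). Cers5 was higher in endothelial cells, at 78.5 and 83.4 UPM against 43.2 and 55.1 UPM, where the transgenic ratio of 1.51-fold barely passed. Cers4 stood at 77.5 and 75.8 UPM against 26.4 and 34.7 UPM. Cers2, the synthase of very long chains, was alike in both cell types within 1.5-fold, at 39.2 and 25.8 UPM against 33.7 and 37.3 UPM.

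Of the subunits of serine palmitoyltransferase, Sptlc2 stood at 233 and 262 UPM in endothelial cells against 134 and 151 UPM (log2 ratios 0.80 and 0.80). Sptlc1, its obligate partner, stood at 43.2 and 36.4 UPM against 22.1 and 25.5 UPM and passed in the WT library only. The small subunit Sptssa was at 44.1 and 62.2 UPM against 72.6 and 63.4 UPM, past 1.5-fold lower in the WT library only. Ormdl2 and Ormdl3, the inhibitors of the enzyme that reached the floor, showed no difference past 1.5-fold in either library. Ormdl2 was at 14.7 and 16.7 UPM against 15.0 and 18.8 UPM, and Ormdl3 at 21.6 and 25.8 UPM against 21.7 and 21.9 UPM. Kdsr, the reductase of the step after serine palmitoyltransferase, was at 48.1 and 28.8 UPM against 26.2 and 23.8 UPM, and Degs1, the desaturase that turns dihydroceramide into ceramide, at 127 and 94.0 UPM against 75.3 and 79.4 UPM. Kdsr and Degs1 passed in the WT library only.

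**Figure D1:**
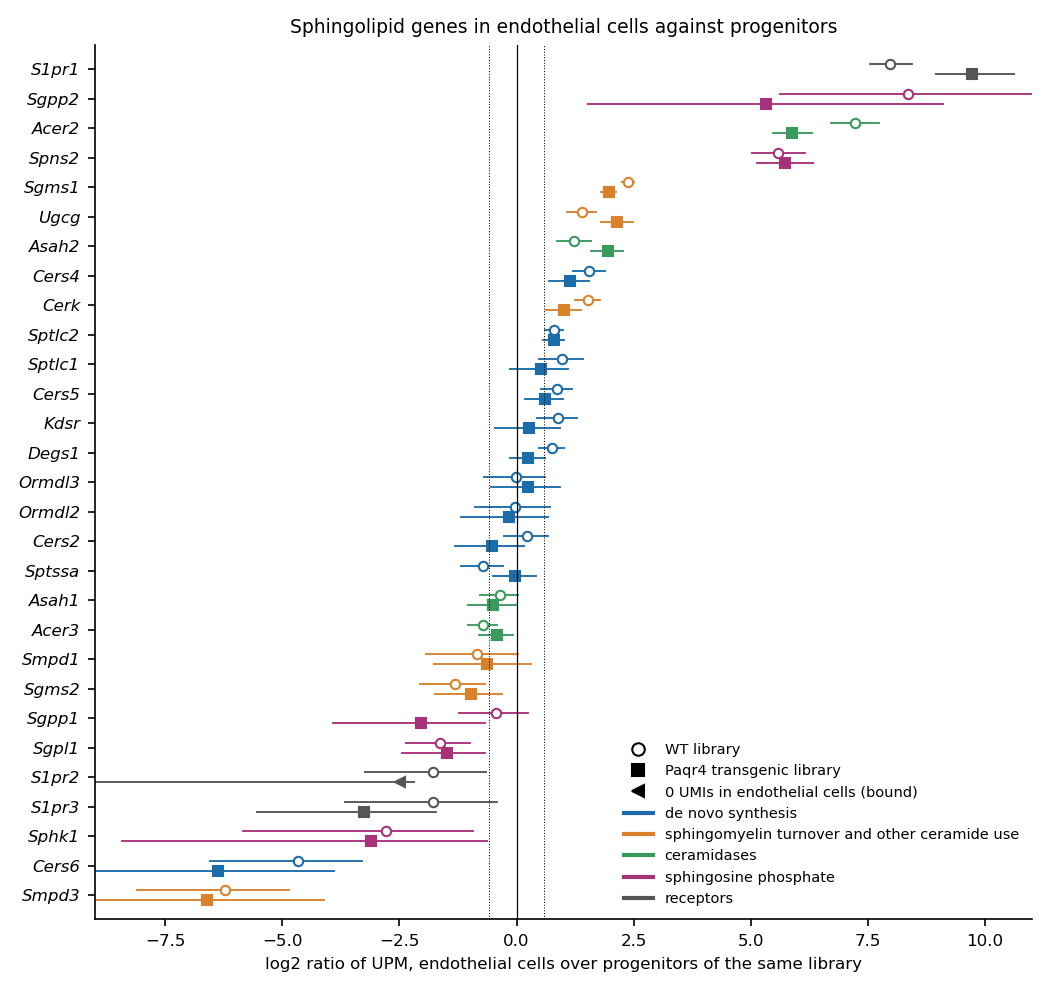
Log2 ratio of the UPM level in endothelial cells over progenitors of the same library, for the 29 genes at the floor, with exact 95% intervals (some run past the axis) and the 1.5-fold lines dotted. S1pr1, Sgpp2, Acer2 and Spns2 lie far to the right in both libraries and Cers6 and Smpd3 far to the left. The triangle marks 0 UMIs of S1pr2, drawn as if 3 UMIs.

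The 5 endothelial cells with most UMIs of a gene carried between 15.7% (S1pr1, WT) and 45.6% (Spns2, transgenic) of its endothelial UMIs among Sgms1, Acer2, Spns2 and S1pr1. Leaving out, for each gene, the 5 cells with most of its UMIs in each class left 5 genes higher (Sgms1, Asah2, Acer2, Spns2 and S1pr1) and 13 lower; since endothelial cells are few, this lowers their levels more than those of progenitors. Among the 47 further pathway genes, 28 were at the floor, of which 5 were higher and 6 lower in endothelial cells. The largest ratios were for Plpp1, a lipid phosphate phosphatase, at 1775 and 546 UPM against 46.9 and 72.9 UPM, for the glucosylceramidase Gba2, at 25.5 and 28.8 UPM against 3.28 and 2.77 UPM, and for the sialidase Neu1, at 37.3 and 25.8 UPM against 12.3 and 11.3 UPM. In the other direction stood the ganglioside activator Gm2a, at 7.85 and 12.1 UPM against 41.3 and 44.6 UPM, the exporter Abcc1, at 32.4 and 13.6 UPM against 66.2 and 64.0 UPM, and the lactosylceramide synthase B4galt5, at 36.3 and 37.9 UPM against 110 and 120 UPM. Haemoglobin and other red cell markers summed to 9398 and 9243 UPM in endothelial cells and 699 and 544 UPM in progenitors; their part in these ratios was not tested.

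Progenitors fell into 6 clusters. Cluster 3 was Dpp4-like (275 WT and 231 transgenic cells), clusters 1 and 4 were Icam1-like (together 432 and 715 cells), and clusters 6 and 7 were F3-like (118 and 201 cells). Cluster 1 was led by stress genes such as Hmox1, Dnajb1 and Hspa1a, and cluster 7 was named by 3 markers only, with Itgbl1, Wnt4 and Tgfbi among its leading genes. Of 12 Icam1-like markers, 6 were raised 1.5-fold over the other progenitor clusters in cluster 1 and 7 in cluster 4. Cluster 4 also raised 5 of 10 F3-like markers. Cluster 6 raised 7 F3-like and 4 Icam1-like markers. Cluster 2 (302 and 213 cells) matched no state and was led by Adamts4, Il6, Procr and Thbd. Each state was set against all other progenitors of its library, and a gene was counted where both libraries passed 1.5-fold in one direction.

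The Dpp4-like cells carried the highest levels of Smpd3 and Ugcg of any state, with high Cers6. Of 25 genes at the floor, 3 were higher and 3 lower, beside 5.31% and 10.1% of 9112 genes; the median log2 ratio was −0.03 in both libraries, against −0.07 and −0.05 over all genes. Smpd3 stood at 639 UPM in WT against 214 UPM in transgenic Dpp4-like cells against 160 and 130 UPM elsewhere (log2 ratios 2.00, interval 1.93 to 2.06, and 0.72, interval 0.62 to 0.82). In the WT library, 4490 of the 7472 Smpd3 UMIs of progenitors came from these 275 cells. Cers6 stood at 155 and 183 UPM against 78.1 and 112 UPM (log2 ratios 0.99 and 0.71), and Ugcg at 58.2 and 44.7 UPM against 27.5 and 22.2 UPM (1.08 and 1.01). The lower genes were Cers4, at 14.5 and 22.6 UPM against 30.8 and 37.6 UPM, Acer3, at 89.1 and 75.2 UPM against 166 and 144 UPM, and S1pr3, at 9.54 and 24.9 UPM against 15.0 and 48.3 UPM. The cells compared with include cluster 2, where Acer3 stood at 299.8 and 327 UPM. In the Icam1-like cells Acer3 stood at 72.0 and 97.1 UPM, so a low level was not particular to the Dpp4-like cells. Of the further pathway genes at the floor, 0 of 26 were higher and only Plpp1 was lower, at 16.8 and 31.2 UPM against 58.3 and 83.2 UPM.

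Cluster 2 was high in Acer3 and Sphk1, a ceramidase and a kinase of the steps from ceramide to sphingosine phosphate. Of 25 genes, 3 were higher and 2 lower, beside 4.22% and 14.3% of 9052 genes; the median log2 ratio was −0.15 and −0.16, against −0.24 and −0.27 over all genes. Acer3 stood at 299.8 UPM in WT against 327 UPM in transgenic cells of the cluster against 80.3 and 89.1 UPM elsewhere (log2 ratios 1.90, interval 1.81 to 2.00, and 1.87, interval 1.78 to 1.97). A UMI of Acer3 was seen in 73.5% and 71.4% of cells of cluster 2, and in 34.5% to 57.3% of cells of the other progenitor clusters. Sphk1 stood at 26.2 and 27.9 UPM against 8.34 and 10.0 UPM (1.65 and 1.48); the smaller cluster 7 had as much, at 30.1 and 28.0 UPM. S1pr3 was the third, at 20.2 and 65.5 UPM against 10.7 and 39.1 UPM. The lower genes were Ormdl3, an inhibitor of serine palmitoyltransferase, at 13.4 and 8.27 UPM against 25.1 and 24.7 UPM, and S1pr2, at 13.9 and 14.4 UPM against 22.9 and 28.0 UPM. Under other settings the S1pr3 call was kept in 8 of 11 alternatives and the S1pr2 call in 6 of 11, so these calls depend on the clustering or the other choices made. B4galt5 was the 1 further pathway gene past 1.5-fold, at 167 and 230 UPM against 85.6 and 96.4 UPM.

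The Icam1-like cells were named from a list of preadipocyte markers that includes Pparg and Lpl. They had 1 of 26 genes higher and 2 lower, beside 4.63% and 4.16% of 9173 genes. S1pr2 was higher, at 26.6 and 31.5 UPM against 16.9 and 19.7 UPM. Acer3 stood at 72.0 and 97.1 UPM against 184 and 165 UPM, and Sphk1 at 5.70 and 9.57 UPM against 17.8 and 16.8 UPM, the 2 genes that were high in cluster 2. Cluster 2 is among the cells compared with here, so these calls are not independent of those above. The further pathway genes had B4galt5 alone past 1.5-fold, at 60.5 and 85.2 UPM against 136 and 155 UPM. The medians were 0.17 and 0.11, against 0.20 and 0.13 over all genes.

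The F3-like cells had 0 of 26 genes higher and 2 lower, beside 8.46% and 4.07% of 9608 genes, with medians of −0.07 and −0.09 against 0.09 and 0.05 over all genes. Smpd3 stood at 59.4 and 63.5 UPM against 312 and 158 UPM (log2 ratios −2.40, interval −2.66 to −2.14, and −1.32, interval −1.53 to −1.11), the lowest of the states. The F3-like levels of Smpd3 lay below those of near-empty droplets, at 97.2 and 98.6 UPM. Acer3 stood at 85.6 and 77.9 UPM against 150.1 and 138 UPM. Cluster 2, at 299.8 and 327 UPM, is among the cells compared with, and the Dpp4-like cells stood at 89.1 and 75.2 UPM. The 2 clusters of this state were unlike in Cers6, which stood at 50.3 and 71.2 UPM in cluster 6 and at 118 and 203 UPM in cluster 7. Sphk1 divided them too, at 3.14 and 4.36 UPM in cluster 6. Of the further pathway genes, the ceramide transfer protein Col4a3bp (Cert1) was higher, at 113 and 161 UPM against 71.1 and 79.3 UPM, Plpp1 was higher, at 138 and 141 UPM against 38.6 and 63.6 UPM, and Plpp3 was lower, at 1174 and 915 UPM against 1981 and 1614 UPM.

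**Figure D2:**
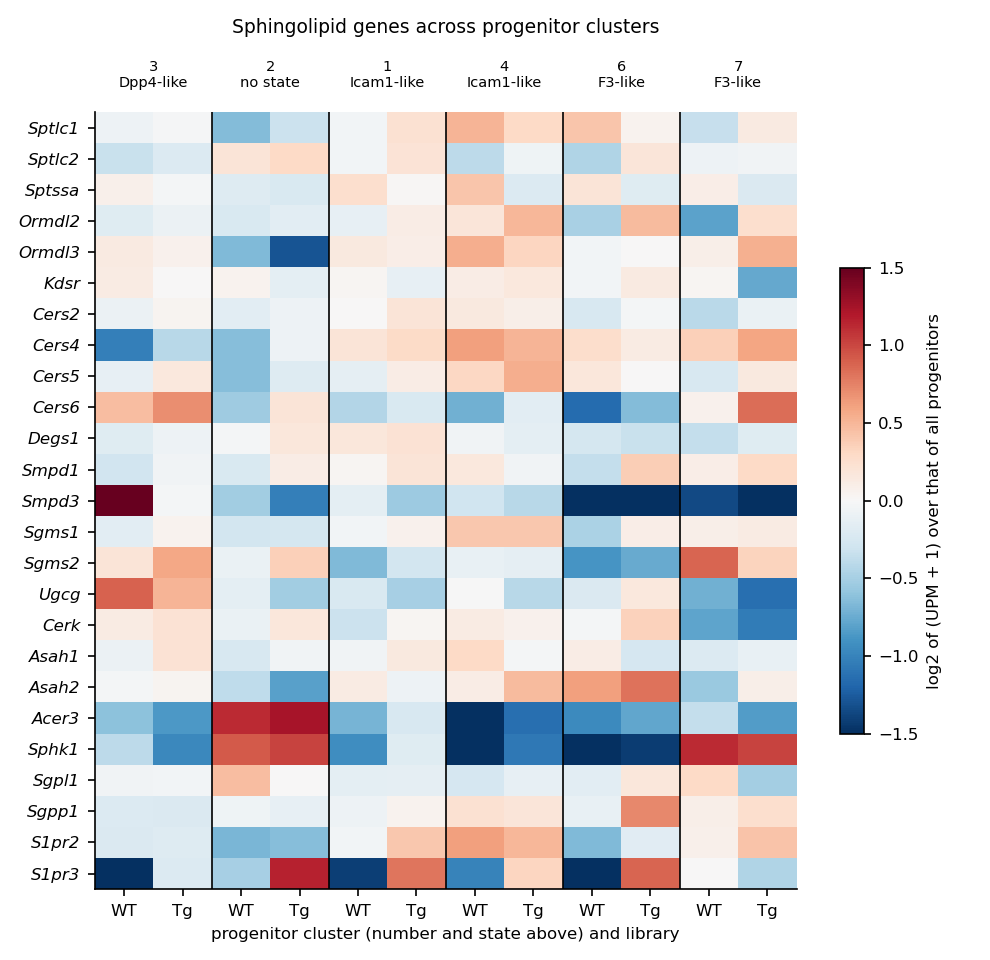
Log2 of the level plus 1 UPM of each gene in each progenitor cluster and library, over its level plus 1 UPM in all progenitors together, with the colour limited at 1.5 in either direction. Smpd3 is high in WT cluster 3 and low in clusters 6 and 7, and Acer3 and Sphk1 are high in cluster 2 of both libraries.

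Between the libraries, most of the pathway stood within 1.5-fold in progenitors, and S1pr3 and Smpd3 were the exceptions. Of 25 genes at the floor, 1 was higher and 1 lower in the transgenic library, beside 2.74% and 1.76% of 8748 genes. The median log2 ratio of the 25 genes was 0.14, with 18 above 0 and 7 below, against 0.09 over all genes, of which 67.0% were above 0. By step the median was 0.17 for de novo synthesis (11 genes), 0.16 for sphingomyelin turnover and other ceramide use (6 genes), 0.08 for ceramidases (3 genes) and −0.05 for sphingosine phosphate (3 genes). Of 26 further pathway genes, Plpp1 alone was higher, at 72.9 UPM against 46.9 UPM in WT, and Abca1, the lipid exporter, alone was lower, at 103 UPM against 183 UPM, with a median of 0.11.

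S1pr3 stood at 13.5 UPM in WT against 43.7 UPM in transgenic progenitors, from 346 and 1152 UMIs, which is 3.24-fold higher (log2 ratio 1.70, interval 1.52 to 1.87). The share of progenitors with a S1pr3 UMI was 15.2% in WT against 39.9% in transgenic, and with every cell thinned to 5000 UMIs in 4.26% and 16.8% (25 and 47 shallower cells left out). In endothelial cells the thinned shares were 1.22% and 1.45%. The difference did not rest on a few cells, since the 5 cells with most S1pr3 UMIs held 13.6% of its UMIs in WT and 4.69% in transgenic. Near-empty droplets held S1pr3 at 7.82 and 29.8 UPM. Pericytes are rich in S1pr3, at 273 UPM in the 17 pericyte-like cells; the 10 pericyte markers summed to 56.7 UPM in WT against 69.7 UPM in transgenic progenitors, with none at 0 in either, and their part in the difference was not tested.

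The S1pr3 difference recurred in 5 of the 6 progenitor clusters. The log2 ratio was 2.31 (1.93 to 2.72) in cluster 1, 1.70 (1.41 to 1.99) in cluster 2, 1.38 (0.95 to 1.83) in the Dpp4-like cluster 3 and 1.38 (0.87 to 1.92) in cluster 4. The cluster 3 levels, 9.54 and 24.9 UPM, were not above those in near-empty droplets beyond counting error. The intervals there were 5.11 to 11.5 UPM in WT and 22.7 to 38.5 UPM in transgenic. Cluster 6 had 0 UMIs in WT and 74 in transgenic cells, 22.8-fold higher if the 0 is set to 3 UMIs. In cluster 7 the levels were 28.9 UPM in WT against 20.9 UPM in transgenic cells, a log2 ratio of −0.47 (−1.23 to 0.32), so no difference was detectable there at this depth. S1pr2 was higher by less over all progenitors, at 25.7 against 20.3 UPM (0.34, interval 0.17 to 0.51).

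Smpd3 stood at 291 UPM in WT against 147 UPM in transgenic progenitors, from 7472 and 3867 UMIs (log2 ratio −0.99, interval −1.05 to −0.93). The gap was widest in the Dpp4-like cells, at 639 against 214 UPM (log2 ratio −1.58, interval −1.67 to −1.48). The other clusters were closer: −0.51 in cluster 2, −0.40 in cluster 1, −0.56 in cluster 7 and −0.12 (−0.28 to 0.05) in cluster 4. In cluster 6 the direction was opposite, at 42.4 UPM in WT against 71.9 UPM in transgenic cells (log2 ratio 0.76, interval 0.27 to 1.27). With equal weight for each cluster, the log2 ratio of Smpd3 was −0.76, still past 1.5-fold. Near-empty droplets held Smpd3 at 97.2 UPM in the WT library and 98.6 UPM in the transgenic library, above the cluster 6 level of each.

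**Figure D3:**
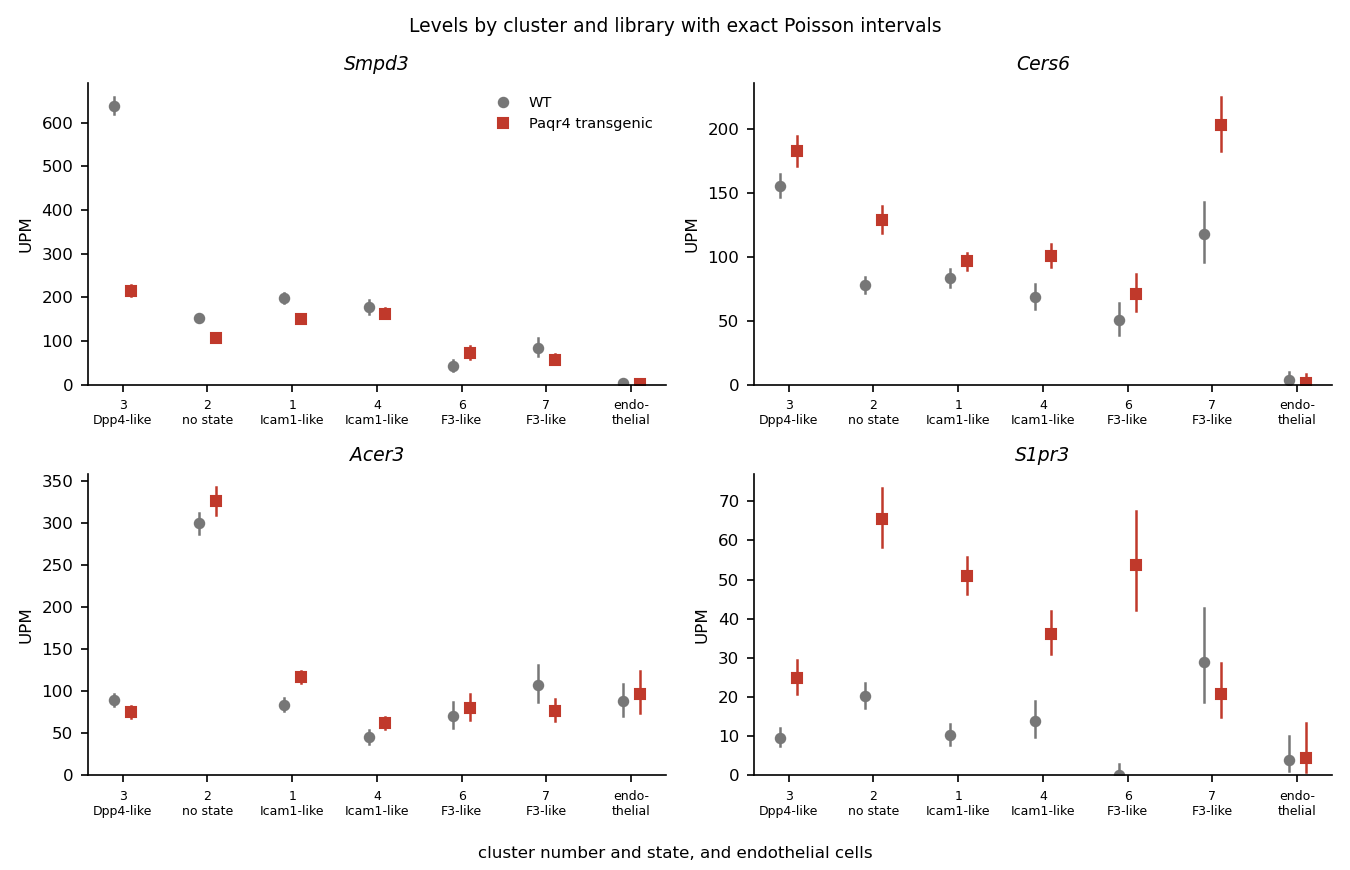
UPM level (vertical axis, from 0) of Smpd3, Cers6, Acer3 and S1pr3 in each progenitor cluster and in endothelial cells, with exact 95% Poisson intervals, WT as grey circles and transgenic as red squares. The Smpd3 gap is widest in cluster 3 (639 against 214 UPM), Acer3 peaks in cluster 2 of both libraries, and S1pr3 is higher in the transgenic library in each cluster but cluster 7.

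Among the ceramide synthases, Cers4, Cers5 and Cers6 were somewhat higher in the transgenic library, each with an interval above 0 and none past 1.5-fold. Cers4 stood at 26.4 and 34.7 UPM (log2 ratio 0.39, interval 0.25 to 0.54), Cers5 at 43.2 and 55.1 UPM (0.35, interval 0.24 to 0.46) and Cers6 at 99.3 and 126 UPM (0.34, interval 0.27 to 0.42). For Cers6 the ratio was above 0 in all 6 progenitor clusters, from 0.21 in cluster 1 to 0.78 in cluster 7, and past 1.5-fold in cluster 2 (77.7 and 129 UPM) and cluster 7. Cers2 was at 33.7 and 37.3 UPM (0.15, interval 0.02 to 0.28).

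The subunits and regulators of serine palmitoyltransferase lay within narrow limits: Sptlc1 at 22.1 and 25.5 UPM, Sptlc2 at 134 and 151 UPM, Sptssa at 72.6 and 63.4 UPM, Ormdl2 at 15.0 and 18.8 UPM and Ormdl3 at 21.7 and 21.9 UPM. Kdsr stood at 26.2 and 23.8 UPM and Degs1 at 75.3 and 79.4 UPM. Among the enzymes that use or release ceramide, Ugcg had the next largest difference after Smpd3, at 35.9 and 26.6 UPM (−0.43, interval −0.58 to −0.29). Sgms1 stood at 118 and 134 UPM, Sgms2 at 46.3 and 53.5 UPM, Cerk at 44.3 and 48.9 UPM and Smpd1 at 17.7 and 21.1 UPM. The ceramidases differed by less, with Acer3 at 145 and 130 UPM (−0.15), Asah1 at 66.6 and 72.7 UPM (0.13) and Asah2 at 30.1 and 31.9 UPM (0.08). Sgpl1 was at 57.8 and 50.7 UPM (−0.19), Sphk1 at 13.6 and 13.1 UPM (−0.05) and Sgpp1 at 22.8 and 24.9 UPM (0.13). None of these values has a replicate check.

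**Figure D4:**
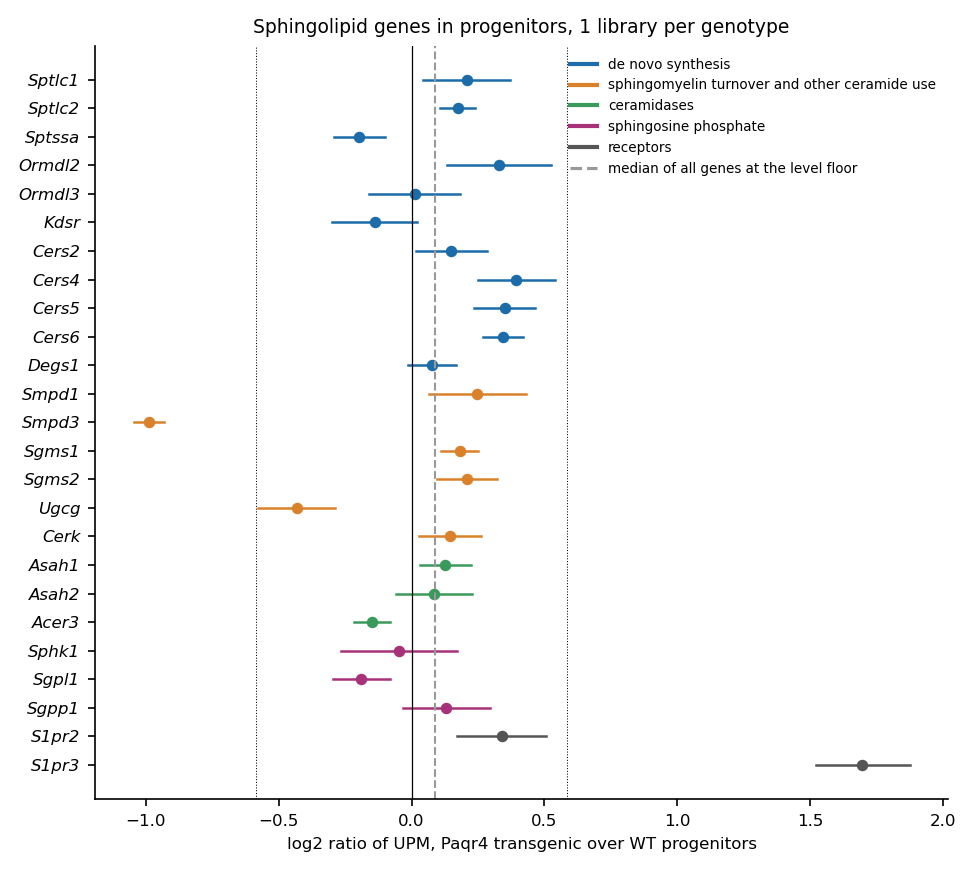
Log2 ratio of the UPM level in transgenic over WT progenitors for the 25 genes at the floor, by step, with exact 95% counting intervals, the median of all genes dashed and the 1.5-fold lines dotted. S1pr3 lies at 1.70 and Smpd3 at −0.99, and the other genes lie within the dotted lines.

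The remaining 8 genes, Sptlc3, Sptssb, Ormdl1, Cers1, Degs2, Smpd2, Acer1 and Sphk2, stayed under 10 UPM in progenitors and endothelial cells of both libraries, and 4 of them (Sptlc3, Sptssb, Cers1 and Acer1) under 5 UPM. Sptlc3, the alternative subunit of serine palmitoyltransferase, and Acer1, the ceramidase known from skin, had 1 UMI each in the progenitors of either library and 0 in endothelial cells. Sptssb had 0 UMIs in WT and 2 UMIs in transgenic progenitors and 0 in endothelial cells. Cers1, a synthase known from brain and muscle, had 24 and 10 UMIs in progenitors and 0 in endothelial cells; it shares its locus with Gdf1 on the same strand. In endothelial cells 3 UMIs would be 2.94 UPM in the WT library and 4.55 UPM in the transgenic library, so a count of 0 allows low levels. Smpd2 was just under the floor, at 8.42 and 9.45 UPM in progenitors.

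Lymphatic endothelial cells, 6 in each library, were among the endothelial cells above. Over these 12 cells S1pr1 stood at 267 UPM (32 UMIs, interval 183 to 377), Spns2 at 233 UPM (28 UMIs, interval 155 to 337) and Ugcg at 233 UPM (28 UMIs). So both S1pr1 and Spns2 were seen in lymphatic cells, with too few cells to set them against blood endothelial cells by library. All 37 genes were found in GENCODE M21 on GRCm38. Of these, 9 overlap another gene on the same strand, Smpd3 with Gm26786 and Cers6 with 6 loci of uncertain type among them, and 19 overlap one on the opposite strand, such as S1pr3 with Gm32834; how reads there were assigned is not stated, so these levels are uncertain to that extent.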

How the data were processed

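Single-cell RNA-seq was analysed from 1 WT and 1 Paqr4 transgenic library. The matrices hold raw UMI counts for every barcode, as deposited; per the submitters' processing notes, Cell Ranger 7.0.0 was used with mm10, though per the file headers it was Cell Ranger 4. Whether intron reads, which weigh on long genes, were counted is not stated. Cells needed at least 1000 UMIs and 500 genes, with mitochondrial UMIs of 10% or less; Scrublet removed 1 WT and 4 transgenic cells (0.0752% and 0.262%). Under 0.5% is few, so doublets may remain. Counts were scaled to 10000 per cell and clustered (scanpy 1.11.5, 2000 variable genes without the pathway genes, 30 components, 15 neighbours, Leiden resolution 0.5, seed 1). Clusters were named from marker lists; naming thresholds were chosen after clusters were seen.

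Counts of a class were summed per library. A gene was compared at 10 UPM or more in either side, and named where its rule (every listed gene at the floor, and up to 3 further pathway genes in each direction) gave it. The listed genes and the further pathway genes were chosen with earlier results of these data known. The ratio and its interval were tested on simulated Poisson counts. Such counts hold no variation between cells or mice, so only the calculation was checked. Alternatives were other UMI and mitochondrial limits, doublets kept, Leiden resolution 0.3 and 1.0, other variable genes, separate clustering, thinning to 5000 UMIs, floors of 5 and 20 UPM, leaving out each gene's 5 top cells, equal cluster weights and recentring. Cert1 was matched as Col4a3bp.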

Additional observations from a re-analysis of the deposited data

Results flagged for a closer look

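Smpd3 was flagged because its difference between the libraries ran in opposite directions in 2 progenitor clusters. The log2 ratio of transgenic over WT was −1.58 in the Dpp4-like cluster 3 and 0.76 in the F3-like cluster 6. The difference between these was not tested. The Smpd3 levels of cluster 6 lay below those of near-empty droplets, at 97.2 and 98.6 UPM, in both libraries. Levels in small clusters outside the comparisons were flagged as far above those of progenitors and endothelial cells. Sgms2, the plasma membrane sphingomyelin synthase, stood at 468 UPM in the 21 mesothelial-like cells; 169 of its 183 UMIs came from the 11 WT cells. S1pr3 stood at 273 UPM in the 17 pericyte-like cells, from 31 WT and 13 transgenic UMIs. Sgpp2 stood at 104 UPM in the 15 epithelial-like cells, from 29 WT and 5 transgenic UMIs.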

How the results depend on the processing

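No paired analysis was possible because each genotype has 1 library. No value past 1.5-fold as reported changed direction under the 15 alternatives for the genotype comparison or the 12 for the others. Some smaller values did, such as the WT log2 ratio of Cers2 in endothelial cells, 0.22 as reported and −0.93 at its lowest. The transgenic log2 ratio of Kdsr in endothelial cells was 0.28 as reported and −0.74 at its lowest. Between the libraries, 2 genes were past 1.5-fold under all 15 alternatives, S1pr3 and Smpd3 each time; the log2 ratio of S1pr3 ranged from 1.61 to 2.08 and that of Smpd3 from −1.08 to −0.76, and the median of the listed genes from 0.06 (recentred on all genes) to 0.15. In endothelial cells 17 to 21 genes were past 1.5-fold (19 as reported), with 5 to 12 higher and 7 to 13 lower, and Sgms1, Asah2, Acer2, Spns2, S1pr1, Cers6, Smpd1, Smpd3, Sgpl1, S1pr2 and S1pr3 were called under all 12 alternatives. Counts by progenitor state depended more on the clustering, with 4 to 7 in Dpp4-like, 2 to 5 in Icam1-like, 0 to 5 in F3-like and 1 to 8 in the cells of no state (6, 3, 2 and 5 as reported). At resolution 0.3 no cluster was left without a state, and the causes of these shifts were not tested. Ugcg in Dpp4-like cells was called under all 12, Cers6 and Smpd3 under 11 of 12, and Acer3 in the cells of no state under all 11; Acer3 in F3-like cells was called under 5 of 12, S1pr3 in Dpp4-like cells under 9 of 12, and S1pr2 and Sphk1 in Icam1-like cells under 8 of 12 each. In the cells of no state, Sphk1 was called under 10 of 11, S1pr3 and Ormdl3 under 8 of 11 and S1pr2 under 6 of 11. Of 1061 single-gene values under the alternatives, 64 moved beyond the counting interval, which does not cover the choice of processing. Endothelial values rest on few UMIs for Sgpp2, Sphk1, Cers6, Smpd3, S1pr2 and S1pr3.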
